A study of Caenorhabditis elegans with 24 samples.

Results

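Genome contact of the chromatin protein BAF-1 and its G12T mutant was compared in the hypodermis of L4 larvae, gene by gene and along the chromosomes. The comparison set 3 replicate ratio columns of the mutant against 3 of the wild-type protein, in pairs by replicate number, and rests on 12 of the 24 libraries in the series. Profiles were made by DamID, in which a bacterial methyltransferase (Dam) fused to a protein marks GATC sites close to where that protein touches DNA. The wild-type group carried Dam::BAF-1 in WT animals (strain BN1047), and its control was GFP::Dam in WT animals (BN561). The mutant group carried Dam::BAF-1(G12T) in animals whose own gene was baf-1(G12T) (BN1050), and its control was GFP::Dam in baf-1(G12T) animals (BN1048). Each of the 4 groups held 3 libraries, so protein and genotype differ together and cannot be told apart. All constructs were driven by the hsp16.41 promoter and were single copies on chromosome II at the ttTi5605 site. A mCh::his-58 cassette between FRT sites was removed in the hypodermis by dpy-7p::FLP, which limits the Dam proteins to cells in which the dpy-7 promoter has been active. Each profile is an average over these cells, so fewer cells with contact and less contact per cell cannot be told apart. Animals of all groups were grown for 48 h at 20 °C, and 4000 of them gave 400 ng of DNA that was amplified over 22 PCR cycles. The study describes its DamID replicates as biological and independent. The p-values rest on the spread between them. In the fits of single features this spread was moderated over all features, and for windows of 100 kb it was pooled over all windows.

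BAF-1 is the worm form of barrier-to-autointegration factor, a small protein that dimerises, binds DNA without known sequence preference and also binds LEM-domain proteins and lamin. In this way it links chromatin to the inner face of the nuclear envelope and takes part in rebuilding the envelope after mitosis. In C. elegans the arms of the autosomes lie close to the envelope and their centres lie inside the nucleus. The hypodermis is the epidermis of the worm, which secretes the collagen cuticle. In humans, a change of the corresponding residue causes Nestor-Guillermo progeria syndrome.

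The mutated residue is shown in its codon, because it names the mutant protein. The first 24 of 89 codons of baf-1 (III, 9467469 to 9467540, plus strand, RefSeq, WBcel235, the same assembly as ce11) are printed from the start codon. Capitals mark codon 12, GGA, which encodes glycine in the WT and becomes threonine in G12T (glycine first, then the position in the protein counted from the start methionine, then threonine).
baf-1 codons 1 to 24: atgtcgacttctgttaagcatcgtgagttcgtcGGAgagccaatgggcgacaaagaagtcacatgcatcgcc

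The unit of measurement is the log2 ratio of fusion to GFP::Dam reads over a feature, so a value of 0 after centring is the middle of the profile and a higher value is more contact relative to GFP::Dam. A gene was measured with 500 bp added at each end. Of 46374 genes, 26695 (57.6%) were away from the most frequent value, the value a feature without reads takes, in all 6 columns, and of 50139 bins of 2 kb 33580 (67.0%) were. All results concern these kept features. Kept genes had reads in the fusion or control library behind every column, so the counts over them are not counts over all genes. There were 927 windows of 100 kb with at least 25 kept bins. The ratio tables carry no counts, and precision is therefore given as the spread over replicates.

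The profiles of the 2 proteins were alike on a large scale, and the replicate number left a stronger mark than the protein. Across 100 kb windows the Pearson correlation of BAF-1 and BAF-1(G12T) columns of the same number was 0.970 to 0.975. Columns of the same protein with different numbers correlated at 0.941 to 0.962 for BAF-1 and 0.960 to 0.974 for BAF-1(G12T). At 2 kb the ranges were 0.800 to 0.847 for the same number across proteins, 0.668 to 0.762 within BAF-1 and 0.752 to 0.840 within BAF-1(G12T). These are correlations across positions of one genome, which are not independent. Of the sum of squares over kept 2 kb bins, 79.3% lay in the profile common to all 6 columns. A further 12.1% went with the replicate number, 2.87% with the protein and 5.70% with neither. Per degree of freedom the protein part was 1.01 times the part with neither, and the replicate part 2.13 times. At 2 kb the protein part was thus about the size of the remainder. In 100 kb windows the protein accounted for 0.714%, the replicate number for 2.46% and neither for 0.850%. Per degree of freedom the protein and replicate parts were there 1.68 and 2.89 times the remainder.

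**Figure D1:**
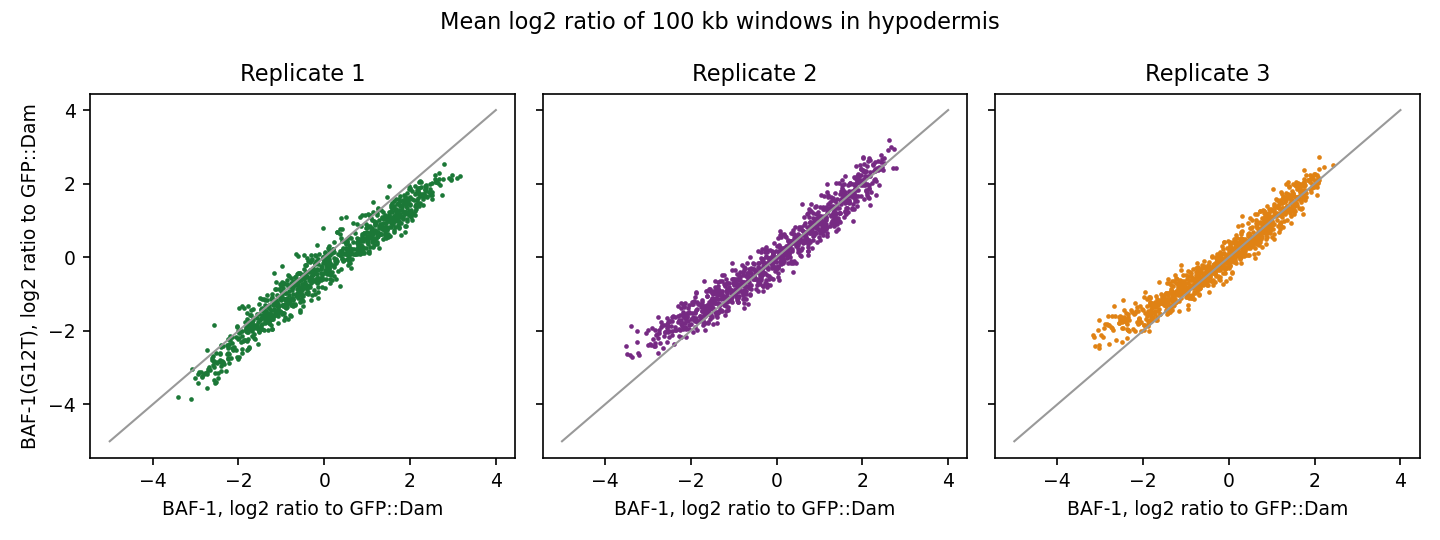
Mean log2 ratio to GFP::Dam of each of the 927 windows of 100 kb for BAF-1 (horizontal axis) and BAF-1(G12T) (vertical axis), one panel per replicate number, after each column was centred on its median over kept 2 kb bins. Points follow the line of equal values (grey), with most windows of replicate 1 below it and with the lowest windows of replicates 2 and 3 above it.

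No single gene, bin or window could be called different. With limma on the paired differences, 0 of 26695 genes, 0 of 33580 bins and 0 of 927 windows passed a false discovery rate of 0.05, and the percentage called was 0 in each direction. The smallest adjusted p-values were 0.970, 0.977 and 0.948. At an unadjusted p under 0.05 limma gave 743 genes with a higher and 407 with a lower ratio for BAF-1(G12T), which are 2.78% and 1.52% of the genes. The same rule gave 803 (2.39%) and 529 (1.58%) bins, and 11 (1.19%) and 14 (1.51%) windows. All 3 pairs were above 0 in 3354 bins (9.99%) and below 0 in 5093 (15.2%). Without the pairing limma called 0 genes, with 376 higher and 133 lower at an unadjusted p under 0.05, 0 bins (382 and 166) and 0 windows (4 and 2).

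The width of the intervals describes the precision of these fits. The median half-width of the 95% interval of a difference was 1.29 on the log2 scale for a gene, 1.35 for a bin and 0.46 for a 100 kb window. For 923 of 927 windows (99.6%) the whole interval lay within 1 of 0, while this held for 0 genes and 0 bins. The fit gave windows a common standard error of 0.23, pooled over all of them. The interval of a window therefore does not reflect its own 3 pairs. Their SD was 0.20 at V, 12100001 to 12200000 and 0.63 at II, 7200001 to 7300000, with the same interval width. Differences between the proteins ran from -0.55 to 0.75 over the windows. A difference larger than 1 in size was measured for 3467 genes, none of them past the threshold. Bins with few GATC sites were the least certain. The median SD over the 3 pairs was 1.21 in bins with 1 to 2 sites, 0.99 with 3 to 5, 0.88 with 6 to 9 and 0.85 with 10 or more.

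The genes of the nuclear envelope are described first, since BAF-1 works with their products. At baf-1 itself (WBGene00000235; III, 9467464 to 9468058) the log2 ratios were -0.82, 2.41 and 0.69 in BAF-1 replicates 1 to 3 and -3.28, 2.78 and -1.39 in BAF-1(G12T) replicates 1 to 3. The groups overlapped, and the paired difference was -1.39 ± 1.53 (SD, n = 3 pairs) with an adjusted p of 0.97 by limma. The Dam fusions also carry baf-1 sequence, and a ratio of methylated DNA does not show which allele an animal has. At lmn-1, which encodes the only lamin of the worm, the ratios were 0.79, 0.11 and -1.36 for BAF-1 and 0.20, 0.18 and -1.76 for BAF-1(G12T). At emr-1, the gene of emerin, they were 0.25, 1.06 and -0.22 and -1.71, 1.59 and -0.73. At lem-2, whose product is another LEM-domain protein of the inner membrane, they were 0.78, 1.00 and -0.28 and 0.13, -0.94 and 0.74. The groups overlapped at each of these genes, with paired differences of -0.30 ± 0.34, -0.64 ± 1.25 and -0.52 ± 1.48 (SD, n = 3). Of 16 nuclear envelope genes 15 were kept, 1 was higher and 2 were lower in all 3 pairs. Over all kept genes 10.1% were higher and 14.9% were lower in all 3 pairs. The member higher in all pairs with the smallest p was zyg-12, which ties the centrosome to the nucleus, at 0.50 ± 0.34 (SD, n = 3 pairs). The corresponding lower member was unc-84, a SUN-domain protein of the inner membrane, at -0.60 ± 0.41 (SD, n = 3 pairs).

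Among gene families the cuticle collagens stood at lower ratios with BAF-1(G12T) in each pair. Of 176 collagen genes 164 were kept, and 53 of them (32.3%) were lower in all 3 pairs while 2 (1.22%) were higher. The background percentages are 14.9% and 10.1%. With BAF-1 their median ratio was -0.16 and with BAF-1(G12T) it was -0.70, and their median difference was -0.44 against -0.069 over all kept genes. Because the 3 pairs differ in their overall shift, the differences were also taken relative to the median of all kept genes in the same pair. The medians for collagens were then -0.39, -0.39 and -0.38 in pairs 1, 2 and 3. On this scale 53 collagens lay below and 4 above the median of all genes in all 3 pairs, where 12.8% and 12.6% of all kept genes did so. With 2 pairs at a time the share below was 45.7% without replicate 1 (25.6% of all genes), 48.2% without replicate 2 (24.2%) and 48.2% without replicate 3 (25.6%). Those below numbered 25 of 58 in autosome arms (43.1%, against 14.8% of all kept genes there), 22 of 79 in centres (27.8% against 10.1%) and 6 of 27 on X (22.2% against 11.6%). On a common scale of the columns the medians were -0.37, -0.36 and -0.49, and without the filter they were -0.12, -0.73 and -0.85. None passed the threshold by limma, with 6 lower and 0 higher at an unadjusted p under 0.05.

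Single collagens show the size of these differences. At col-162 (WBGene00000735; V, 13441961 to 13443419) the ratios were 3.26, 3.51 and 2.02 for BAF-1 and 1.64, 1.00 and 0.30 for BAF-1(G12T), so the groups did not overlap. The paired difference was -1.95 ± 0.49 (SD, n = 3 pairs), and the adjusted p by limma was 0.97. At rol-8, a collagen gene whose mutation makes animals roll, the ratios were -3.09, -3.02 and -2.65 for BAF-1 and -3.94, -4.61 and -3.87 for BAF-1(G12T), and the difference was -1.22 ± 0.37 (SD, n = 3 pairs). At col-12 they were -0.50, -0.091 and 0.11 and -1.70, -1.05 and -1.18. The groups were again apart at both genes, which were named after their values had been seen. The collagen with the smallest p in the other direction was col-36, at -1.26, -0.32 and -2.71 for BAF-1 and -0.22, 0.67 and -1.30 for BAF-1(G12T), where the groups overlapped and the paired difference was 1.14 ± 0.22 (SD, n = 3 pairs). At dpy-7, a cuticle collagen whose promoter drives the FLP here, the ratios were -1.66, -3.58 and -2.19 and -2.62, -2.63 and -2.37, with a difference of -0.064 ± 0.96 (SD, n = 3 pairs).

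Collagens with changed RNA polymerase occupancy in the mutant were followed as a fixed group of 8, all kept. Polymerase occupancy was measured in other libraries from the hypodermis of the same mutant. The median difference of the 8 was -0.44, against -0.069 over all kept genes. Among the 8, 2 (25%) were lower and 0 higher in all 3 pairs, where 14.9% and 10.1% of all kept genes were. The 2 were col-125, at -0.57, -0.50 and -0.64 for BAF-1 and -1.07, -2.91 and -1.25 for BAF-1(G12T), and col-139, at -0.91, 0.74 and -0.20 and -1.68, -0.82 and -0.95. At col-125 the groups were apart and at col-139 they overlapped. The paired differences were -1.17 ± 1.07 and -1.03 ± 0.46 (SD, n = 3), each with an adjusted p of 0.97 by limma. The other members ranged in paired difference from -0.57 at dpy-13 to 0.55 at col-184, with pairs of both signs in each of them, and the values for col-39, col-63, col-90 and col-145 were 0.021, -0.46, -0.41 and 0.13. Medians of the 8 relative to all genes were -0.27, -1.12 and 0.55 in pairs 1 to 3.

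GC content moved with these differences in 2 of the 3 pairs. The 2 kb bins were divided into 5 classes of equal size by GC content, from 16.6% to 33.4% in the lowest class and 39.4% to 57.2% in the highest. Relative to all bins, the lowest class stood at 0.34, 0.33 and 0.018 in pairs 1, 2 and 3, and the highest at -0.33, -0.44 and 0.019. The trend was thus seen in pairs 1 and 2 and not in pair 3. Collagen genes are rich in GC, with a median of 42.6% over the measured region against 36.0% for all kept genes. After each pair difference had been adjusted for GC content in 20 classes, an alternative chosen after the data had been seen, the medians of collagens relative to all genes were -0.11, 0.064 and -0.41 in pairs 1 to 3. In pairs 1 and 2 they were thus smaller in size or of the other sign, and in pair 3 they were as large as before. With this adjustment 24 collagens (14.6%) were below and 9 (5.49%) above all genes in all 3 pairs, and the background was 12.4% and 12.3%. Among genes of 40% to 45% GC, 35 of 89 collagens (39.3%) were below all genes in all 3 pairs, with medians of -0.48, -0.29 and -0.49. Of all 3315 kept genes of that class 691 (20.8%) were, with medians of -0.25, -0.39 and 0.0095. The other classes differed less. At 35% to 40% GC 5 of 37 collagens (13.5%) were below, against 14.1% of all kept genes there. At 45% to 50% GC 10 of 33 (30.3%) were, against 25.9%. Over 50% GC 3 of 4 were, against 40%, and under 35% GC only 1 collagen was kept. Limma called 0 genes, 0 bins and 0 windows after the adjustment.

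**Figure D2:**
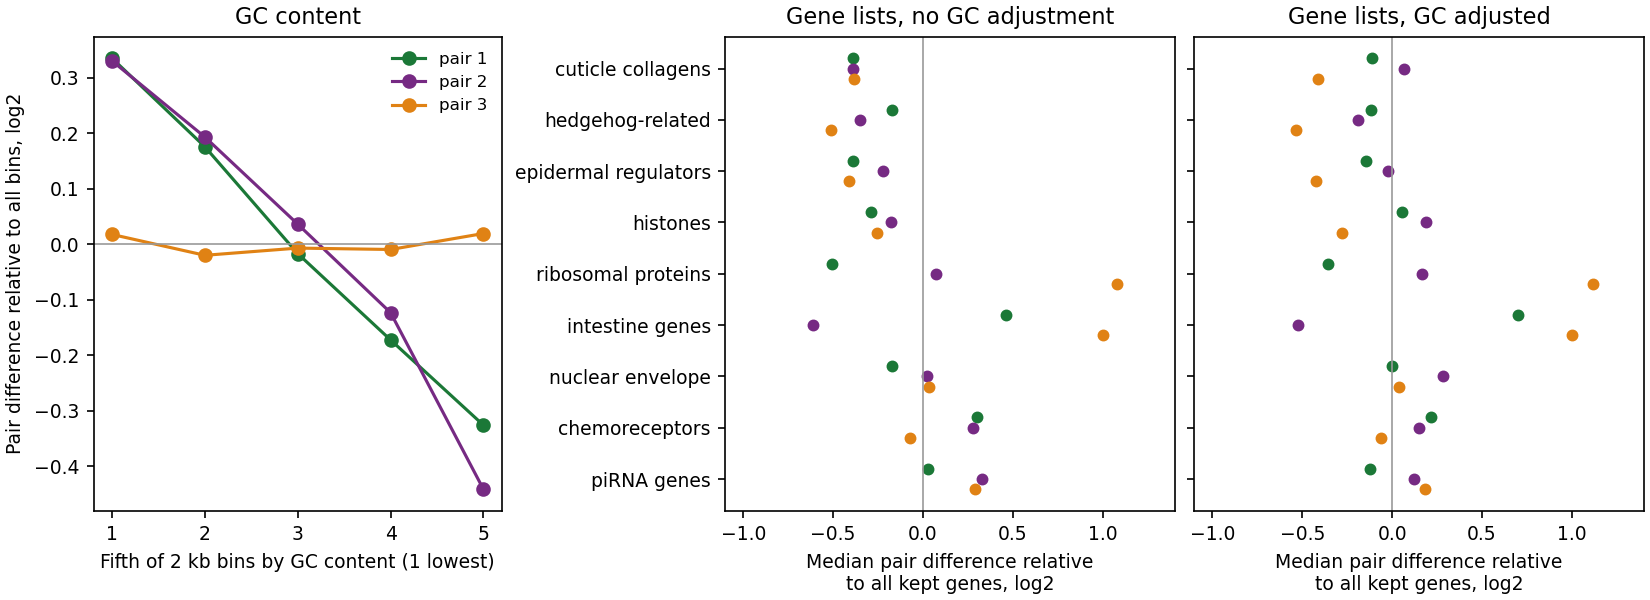
The left panel gives the mean difference of BAF-1(G12T) minus BAF-1 in 5 equal classes of 2 kb bins by GC content, relative to all kept bins, for each replicate pair on the log2 scale. The other panels give the median difference of gene lists relative to all kept genes in each pair, before and after the adjustment for GC content, where collagens lie close together at -0.39, -0.39 and -0.38 before it and at -0.11, 0.064 and -0.41 after it.

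Other genes of the epidermis were described in the same way. Hedgehog-related genes (wrt, grd and grl families), many of which encode secreted proteins made by epidermal cells, had 52 of 57 members kept. 15 of these (28.8%) were lower and 0 were higher in all 3 pairs, beside 14.9% and 10.1% of all kept genes. Relative to all genes their medians were -0.17, -0.35 and -0.51 in pairs 1 to 3, and -0.12, -0.19 and -0.53 after the adjustment for GC content. At grd-12 the ratios were -1.23, 1.44 and 0.94 for BAF-1 and -2.02, -0.71 and -0.59 for BAF-1(G12T), and the paired difference was -1.49 ± 0.68 (SD, n = 3 pairs). The groups overlapped at grd-12, while at grd-15, named after its values were seen, they were apart with 1.74, 2.08 and 2.31 for BAF-1 and 0.87, 0.99 and 0.47 for BAF-1(G12T).

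Epidermal regulators and attachment genes numbered 19, all kept, and 5 (26.3%) were lower and 0 higher in all 3 pairs, against the same 14.9% and 10.1% of all kept genes. Their medians relative to all genes were -0.39, -0.22 and -0.41 in pairs 1 to 3 and -0.15, -0.025 and -0.43 after the adjustment for GC content. The leading member was mlt-10, required for molting, at -0.062, -0.015 and 0.20 for BAF-1 and -1.47, -2.24 and -0.39 for BAF-1(G12T). These groups were apart, and the difference was -1.41 ± 0.82 (SD, n = 3 pairs) with an adjusted p of 0.97 by limma. At mua-6, an intermediate filament gene of the epidermis, the ratios of -3.09, -1.97 and -2.30 and -3.28, -2.12 and -2.23 overlapped. Of 22 epidermal antimicrobial peptide genes (nlp and cnc) 17 were kept, of which 3 (17.6%) were lower and 2 (11.8%) higher in all 3 pairs. The member with the smallest p on the higher side was nlp-27 at 0.47 ± 0.27 (SD, n = 3 pairs). On the lower side it was nlp-26 at -1.60 ± 0.43 (SD, n = 3 pairs), where the ratios were -0.56, -1.81 and 0.31 for BAF-1 and -2.58, -3.43 and -0.86 for BAF-1(G12T).

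The remaining lists hold genes of other tissues and classes. A contact ratio is not a transcript level and does not check the labelled tissue, and the median BAF-1 ratio was -0.95 for the epidermal regulators and 0.52 for intestine genes. Intestine genes (15, all kept) had 2 members higher (13.3%) and 1 lower (6.67%) in all 3 pairs, beside 10.1% and 14.9% of all kept genes. Their medians relative to all genes differed in sign between pairs, at 0.46, -0.61 and 1.00. At ifb-2, an intestinal intermediate filament, the ratios were -2.34, -0.49 and -3.25 for BAF-1 and -0.99, 0.20 and -0.81 for BAF-1(G12T), with a difference of 1.49 ± 0.88 (SD, n = 3 pairs). At ges-1, an esterase gene of the gut, the difference was -0.27 ± 0.20. At dod-3 the difference was 0.086 ± 1.38 (SD, n = 3 pairs) and the groups overlapped. Ribosomal protein genes, which had low ratios with both proteins (medians -2.69 and -2.46), had 75 of 81 kept. Of these 3 (4%) were higher and 2 (2.67%) lower in all 3 pairs, both below the shares of 10.1% and 14.9% over all kept genes. Their relative medians spread widely between pairs, at -0.50, 0.070 and 1.08. Histone genes had 32 of 72 kept, with 10 lower (31.2%, against 14.9% of all kept genes) and 2 higher (6.25%, against 10.1%) in all 3 pairs, and relative medians of -0.29, -0.18 and -0.25, which became 0.054, 0.19 and -0.28 after the adjustment for GC content. Many histone genes have near-identical copies among which reads may be split, so single values are uncertain.

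Larger gene families and small RNA genes were measured as well. Chemoreceptor genes, whose median ratio was 1.68 with BAF-1 against 1.88 with BAF-1(G12T), had 935 of 1365 kept. Of these 138 (14.8%) were higher and 89 (9.52%) were lower in all 3 pairs, where 10.1% and 14.9% of all kept genes were, and their relative medians were 0.30, 0.28 and -0.073. The relative medians of nuclear hormone receptors (228 of 269 kept) were 0.24, 0.057 and -0.059 and those of C-type lectins (211 of 240 kept) were 0.22, -0.025 and -0.0046. Those of F-box A genes (137 of 170 kept) were 0.54, 0.26 and -0.28. piRNA genes had 3442 of 15351 kept, 502 higher (14.6%, against 10.1%) and 299 lower (8.69%, against 14.9%) in all 3 pairs, with a median GC content of 32.7% over the measured region. Their relative medians were 0.027, 0.33 and 0.29 before and -0.12, 0.12 and 0.19 after the adjustment for GC content. Measured regions of neighbouring piRNA genes overlap and share reads, so their number is not a number of independent values. Transfer RNA genes (365 of 612 kept) had 25 higher (6.85%) and 51 lower in all 3 pairs, and snoRNA genes (238 of 346) had 20 (8.40%) and 42 (17.6%). With 10.1% higher and 14.9% lower over all kept genes, the lower shares of both classes were close to the background. Major sperm protein genes (19 of 31 kept) had 0 higher and 1 lower (5.26%).

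Genes with changed RNA polymerase occupancy in mutant hypodermis, from an assay on other libraries, were compared by their direction there. Of 36 genes with higher occupancy in the mutant 34 were kept, and 1 was higher and 6 (17.6%) were lower in BAF-1(G12T) ratio in all 3 pairs. Of 26 genes listed with lower occupancy 25 were in the ratio tables and 24 were kept, and 4 were higher and 4 lower (16.7% each). The background percentages are again 10.1% higher and 14.9% lower. The median differences were -0.19 and -0.0056, and the BAF-1 ratios of both lists were low, with medians of -2.02 and -2.68. At T15D6.10, in the first list, the ratios were 4.51, 3.07 and 6.32 for BAF-1 and 2.93, 3.06 and 2.61 for BAF-1(G12T). At hsp-12.3, a small heat shock gene in the second list, they were -5.98, -2.25 and -2.89 and -3.63, -1.90 and -2.03. The groups were apart at T15D6.10, though nearly equal in replicate 2, and they overlapped at hsp-12.3. The leading members in the other directions were F47D12.6 at 0.88 ± 0.47 in the first list and clec-126 at -0.82 ± 1.15 in the second (SD, n = 3).

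The genes with the smallest p in each direction carry no call, and their values show what 3 pairs that point the same way looked like. The lowest p of the higher genes was at 21ur-15082, a piRNA gene in the centre of chromosome III (WBGene00171286; III, 6398482 to 6398502), where the ratios were -2.23, -2.68 and -4.06 for BAF-1 and -0.26, 1.24 and -0.15 for BAF-1(G12T). The groups were apart and the difference was 3.27 ± 1.12 (SD, n = 3 pairs), with an adjusted p of 0.97 by limma. The next were Y60A9.3 at 3.06 ± 0.95, F31E8.12 at 2.76 ± 0.62, lips-10 (of a lipase-related family) at 2.85 ± 1.01 and F21C10.3 at 2.99 ± 1.38. They were followed by R05F9.11 at 2.39 ± 0.30, F58A6.2 at 2.75 ± 1.16 and C30C11.7 at 2.60 ± 0.97 (SD, n = 3 each). 4 of these 8 genes lie on chromosome II, which holds 3990 of the 26695 kept genes. At lips-10 (WBGene00008803; II, 8439168 to 8442151) the ratios were far below the middle of the profile with both proteins, at -7.68, -7.21 and -7.69 for BAF-1 and -5.86, -4.34 and -3.84 for BAF-1(G12T).

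On the lower side the smallest p was at C33G3.13, a non-coding RNA gene, with 0.50, 2.19 and 2.10 for BAF-1 and -3.17, -1.68 and -0.026 for BAF-1(G12T). At a tRNA gene on chromosome II (WBGene00189967; II, 12728756 to 12728826) the 3 pair differences of -2.57, -2.62 and -2.57 were nearly equal. W04A8.6 had ratios of 5.26, 5.42 and 5.64 for BAF-1 and 2.82, -1.26 and 2.37 for BAF-1(G12T), with the lowest value in replicate 2 and a difference of -4.13 ± 2.25 (SD, n = 3 pairs). The chemoreceptor gene srh-288 followed with 5.75, 4.44 and 5.11 for BAF-1 and 3.27, 2.25 and 3.14 for BAF-1(G12T), and its groups were apart. C35B1.9 stood at -2.62 ± 1.29, the pseudogene WBGene00044951 at -3.94 ± 2.85, acc-4 (a ligand-gated ion channel) at -2.21 ± 0.66 and nhr-118 (a nuclear hormone receptor) at -2.19 ± 0.70 (SD, n = 3 each). All 16 genes had an adjusted p of 0.97 by limma. On the lower side 7 of the 8 genes lie in autosome arms, C33G3.13 on X being the exception. Of all 26695 kept genes 14262 lie in arms, and whether the 8 differ from this was not tested.

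Leading members of the other lists were of the same kind. Higher were sre-4 (chemoreceptor) at 2.79 ± 1.29, nhr-272 at 2.19 ± 0.60, fbxa-98 at 2.20 ± 0.42, clec-58 at 1.48 ± 0.46, his-18 at 1.89 ± 1.24, rps-12 at 1.16 ± 1.05, the tRNA gene WBGene00022952 at 2.20 ± 0.67 and the snoRNA gene F32E10.10 at 2.23 ± 0.72. Lower were clec-108 at -1.50 ± 0.14, fbxa-16 at -1.33 ± 0.52, msp-36 at -1.48 ± 0.60, his-64 at -2.0 ± 1.33, rpl-41.1 at -1.75 ± 1.34, the piRNA gene 21ur-14707 at -1.94 ± 0.75 and the snoRNA gene Y62F5A.11 at -2.25 ± 0.92 (SD, n = 3 each). None of them passed, since no gene did.

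The 2 kb bins with the smallest p overlapped several of these genes. The first higher bin (III, 6398001 to 6400000, ce11) holds 7 GATC sites and 21ur-15082, with ratios of -2.15, -2.81 and -4.02 for BAF-1 and -0.22, 1.24 and -0.14 for BAF-1(G12T). A bin in nfi-1, which encodes a nuclear factor I protein (II, 7540001 to 7542000), had -1.42, -2.61 and -5.12 and 0.19, 1.15 and -0.85. A bin in R05F9.11 (II, 4912001 to 4914000) had -2.29, -3.13 and -3.70 and -0.22, -0.58 and 0.64. The groups were apart in each of them, with differences of 3.29 ± 1.18, 3.21 ± 1.41 and 2.98 ± 1.20 (SD, n = 3), and the adjusted p was 0.977 by limma. A 4th bin (X, 8718001 to 8720000), in F53A9.8, stood at 2.63 ± 0.32. The first lower bin (I, 4824001 to 4826000), in F57C9.6 and tofu-4, had 5.69, 4.15 and 3.95 for BAF-1 and 2.51, 1.78 and 1.36 for BAF-1(G12T). The others were -3.97 ± 2.87 at WBGene00044951 and 2RSSE.5, -2.49 ± 0.82 in sulp-6 and -2.30 ± 0.070 in a bin of chromosome IV with 1 GATC site and no gene of a class other than piRNA (SD, n = 3 each).

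A stretch between neighbouring GATC sites is the unit that DamID amplifies, and 1 such stretch is shown from the first and the third of the higher bins because both hold sites close enough to print. Capitals mark the GATC sites at which Dam methylates. The sequences are of the plus strand of WBcel235 from RefSeq, at III:6398170-6398468 and II:4912847-4912961.
Beside 21ur-15082: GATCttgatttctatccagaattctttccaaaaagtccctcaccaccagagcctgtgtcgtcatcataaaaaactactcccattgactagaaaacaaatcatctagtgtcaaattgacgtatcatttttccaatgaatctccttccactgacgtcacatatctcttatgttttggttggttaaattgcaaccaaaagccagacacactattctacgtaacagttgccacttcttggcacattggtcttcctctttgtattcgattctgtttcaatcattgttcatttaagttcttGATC
Within R05F9.11: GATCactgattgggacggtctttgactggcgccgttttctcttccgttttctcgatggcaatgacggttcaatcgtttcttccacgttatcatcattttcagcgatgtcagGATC
Their GC contents are 37.5% and 47%, and their lengths are 299 and 115 bases. The sequence shows the resolution of the assay, and no motif was searched in it.

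Averaging over larger windows brought the pairs closer to each other. The correlation of the 3 pair differences with each other was 0.004 on average across 2 kb bins, 0.032 across 10 kb, 0.12 across 50 kb, 0.18 across 100 kb and 0.32 across 500 kb windows. These are descriptions over 33580 to 187 positions of the same 6 columns. The gain was uneven between pairs. At 500 kb the differences of pairs 2 and 3 correlated at 0.63, those of pairs 1 and 2 at 0.28 and those of pairs 1 and 3 at 0.043.

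**Figure D3:**
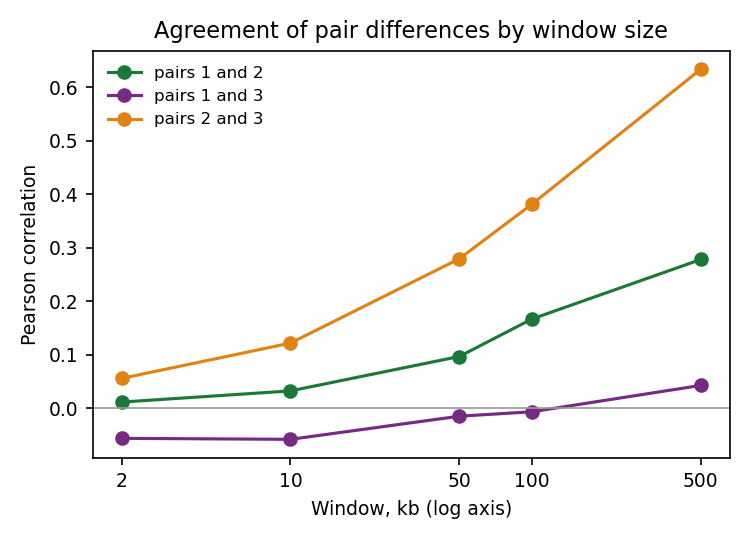
Pearson correlation between the differences (BAF-1(G12T) minus BAF-1) of 2 replicate pairs at a time, across windows of 2 to 500 kb on a log axis. The line for pairs 2 and 3 reaches 0.63 and that for pairs 1 and 3 stays between -0.058 and 0.043.

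Whole chromosomes differed by no more than 0.15 on average. The mean difference over kept bins was -0.15 on chromosome I, 0.016 on II, -0.11 on III, -0.033 on IV, 0.011 on V and 0.047 on X. In chromosome I the pairs gave -0.42, -0.096 and 0.076, and in X they gave -0.34, 0.29 and 0.20. Exact sign-flip tests gave p values from 0.5 to 1, all 1 after adjustment, where 0.25 is the smallest that 3 pairs allow. The pairs have an overall shift of -0.35, 0.11 and 0.15. Relative to it, chromosomes I and III were lower in 3 of 3 pairs and X was higher in 3 of 3 pairs, with 0.0032 in pair 1 (exact sign-flip p = 0.25 each), by -0.12 ± 0.077, -0.082 ± 0.058 and 0.078 ± 0.090 (SD, n = 3).

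The contrast between chromosome arms and centres was smaller for BAF-1(G12T) in every pair. Over the 5 autosomes the mean of kept bins was higher in arms than in centres by 2.43, 2.29 and 1.96 in BAF-1 replicates 1 to 3 and by 2.19, 2.13 and 1.74 in BAF-1(G12T) replicates 1 to 3. The groups overlapped, but each mutant value lay below that of its pair. The paired difference was -0.21 ± 0.040 (SD, n = 3), with an exact sign-flip p = 0.25, the smallest possible, and an exact permutation p = 0.4 without the pairing. Taken singly, chromosomes II, III, IV and V had a smaller contrast in 3 of 3 pairs and chromosome I in 2 of 3. The largest reduction was on chromosome II, from 3.15 ± 0.24 to 2.75 ± 0.42 (SD, n = 3). The arms held 16819 and the centres 10843 of the kept bins, and this difference does not depend on how the columns were centred. Adjusted for GC content it was -0.17, and without the filter on kept bins it was -0.098, with an exact sign-flip p = 0.5.

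**Figure D4:**
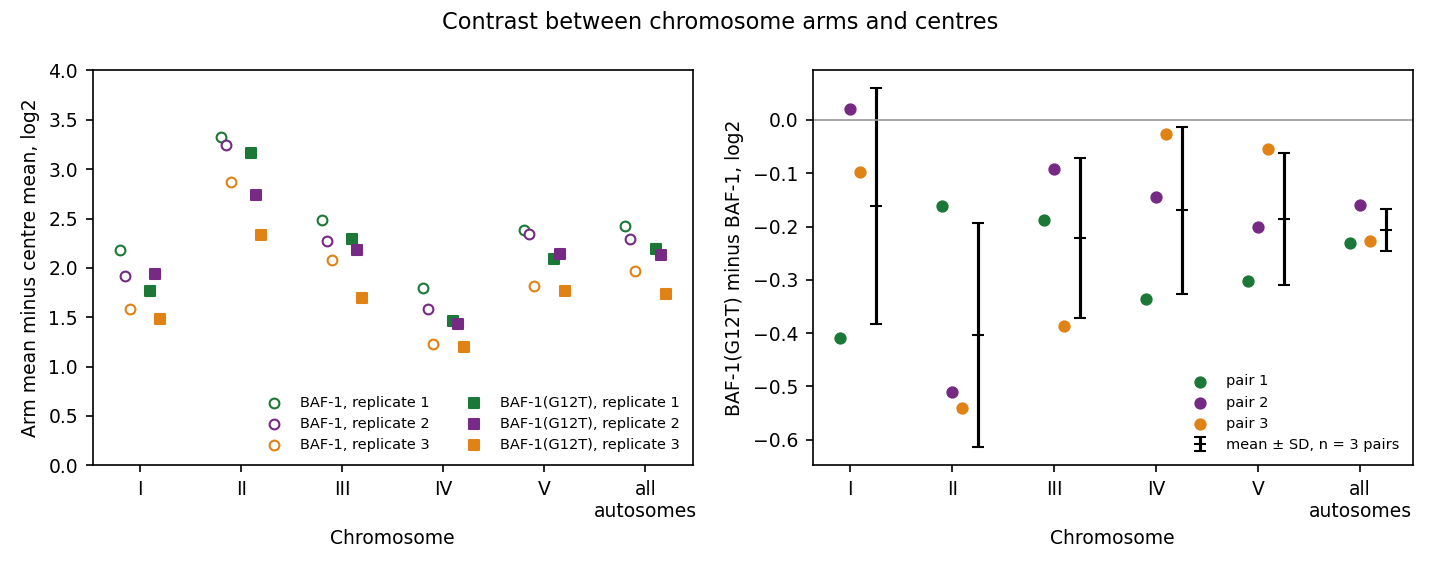
Mean log2 ratio of kept 2 kb bins in arms minus that in centres for each autosome and for all 5 together, for each column (left, open circles BAF-1, filled squares BAF-1(G12T)) and as the difference within each pair (right, with mean and SD over 3 pairs). All pairs lie below 0 for chromosomes II to V and for all autosomes, and pair 2 lies at 0.020 on chromosome I.

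The whole profile of BAF-1(G12T) also had less amplitude, which was noticed after the values had been seen. The SD across kept 2 kb bins was 2.32, 2.11 and 1.88 in BAF-1 replicates 1 to 3 and 2.19, 1.95 and 1.65 in BAF-1(G12T) replicates 1 to 3. The ratio of mutant to wild type was 0.946, 0.921 and 0.876 in the 3 pairs (exact sign-flip p = 0.25 on the log scale). It was 0.941, 0.909 and 0.902 in 100 kb windows, and 0.954, 0.939 and 0.875 in bins adjusted for GC content. When the 6 columns were brought to a common scale, the difference in arm and centre contrast was -0.030 ± 0.064 (SD, n = 3). That scale divides each column by its spread over kept bins, and the contrast is itself part of this spread. The smaller contrast and the smaller amplitude therefore cannot be told apart by it. The share of bins at the most frequent value was 9.19% to 20.1% for BAF-1 and 8.67% to 18.4% for BAF-1(G12T). By the read totals that accompany the study, the mutant fusion libraries were shallower than those of the wild type in pairs 2 and 3 and their GFP::Dam controls were deeper, while in pair 1 the depths were alike. The part of read depth in this was not tested.

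Single arms and centres were then compared. The left arm of chromosome I, the right arm of II and the right arm of III were lower in 3 of 3 pairs, at -0.69, -0.19 and -0.034, at -0.61, -0.16 and -0.0075 and at -0.55, -0.13 and -0.079 in pairs 1 to 3. The means were -0.31, -0.26 and -0.25, each with an exact sign-flip p = 0.25 and an adjusted p of 1 over 17 segments. Pair 1, with its overall shift of -0.35, was below 0 in each of the 17 segments, so none could be above 0 in all 3 pairs. Relative to the overall shift of each pair, X beyond 4 Mb was higher in 3 of 3 pairs, at 0.046, 0.25 and 0.099. On that scale both arms of I, II and III, the left arm of IV and the left 4 Mb of X were lower in 3 of 3 pairs. The exact sign-flip p was 0.25 for each of these segments. The centre of II had the highest mean difference of the segments, 0.23 ± 0.50 (SD, n = 3; exact sign-flip p = 0.5), and its pairs disagreed.

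This centre of chromosome II is where the calls depended on replicate 1. It had the lowest ratios of any segment with both proteins, -1.88, -1.97 and -1.90 for BAF-1 and -2.22, -1.51 and -1.32 for BAF-1(G12T). The differences were -0.35, 0.46 and 0.58 in pairs 1 to 3. Per Mb, pairs 2 and 3 stood highest from 7 to 10 Mb. The 3 pairs gave -0.37, 0.85 and 0.80 from 7 to 8 Mb, -0.48, 0.69 and 0.93 from 8 to 9 Mb and -0.32, 0.65 and 0.80 from 9 to 10 Mb. From 1 to 2 Mb, in the left arm, they gave -0.35, 0.18 and 0.18, and from 13 to 14 Mb, in the right arm, -0.62, -0.30 and -0.042. Pair 1 thus showed the same level in the centre as over all bins (-0.35), while pairs 2 and 3 lay above their own overall shift by 0.35 and 0.43 in the centre as a whole. The Dam constructs of all groups lie on this chromosome, and no coordinate for them was in the sources used.

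Without replicate 1, limma called 74 of 927 windows higher (7.98%) and 0 lower. Of these, 39 lay in the centre of chromosome II, which is 54.9% of its 71 windows, and 16 on X, 8 on III, 7 on V, 2 on I and 2 on IV. Their mean differences in pairs 2 and 3 were 0.68 and 0.75, with ranges of -0.12 to 1.54 and 0.18 to 1.37. This fit used 2 pairs and a standard error of 0.19 pooled over windows. A call therefore does not show that both pairs agreed in that window. At III, 5600001 to 5700000, which was called, pair 2 stood at -0.12 and pair 3 at 1.31. In pair 1, which had no part in the call, the mean was -0.35 with 67 of the 74 windows below 0. This equals the shift of pair 1 over all kept bins (-0.35), so on average pair 1 showed no change particular to these windows. Without replicate 1 on a common scale 31 windows (3.34%) were called higher. With each column centred on its mean 23 (2.48%) were called higher and 1 (0.108%) lower, and with the adjustment for GC content 75 (8.09%) higher and 2 (0.216%) lower. The window with the smallest p with all pairs (II, 7200001 to 7300000) lies in the same stretch. Its ratios were -3.07, -3.25 and -2.79 for BAF-1 and -3.03, -2.0 and -1.83 for BAF-1(G12T), with a difference of 0.75 ± 0.63 (SD, n = 3) and an adjusted p of 0.948 by limma. The groups overlapped, since replicate 1 of BAF-1(G12T) at -3.03 lay below replicate 3 of BAF-1 at -2.79. Within pair 1 the mutant value lay above that of BAF-1 by only 0.043. The window holds 31 genes, 23 of them protein-coding and 3 of these chemoreceptors. Of its 25 kept genes 6 were higher and 0 lower in all 3 pairs, beside 10.1% and 14.9% of all kept genes. The window was chosen for its 3 pairs and its genes share its reads, so these counts are not separate support.

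**Figure D5:**
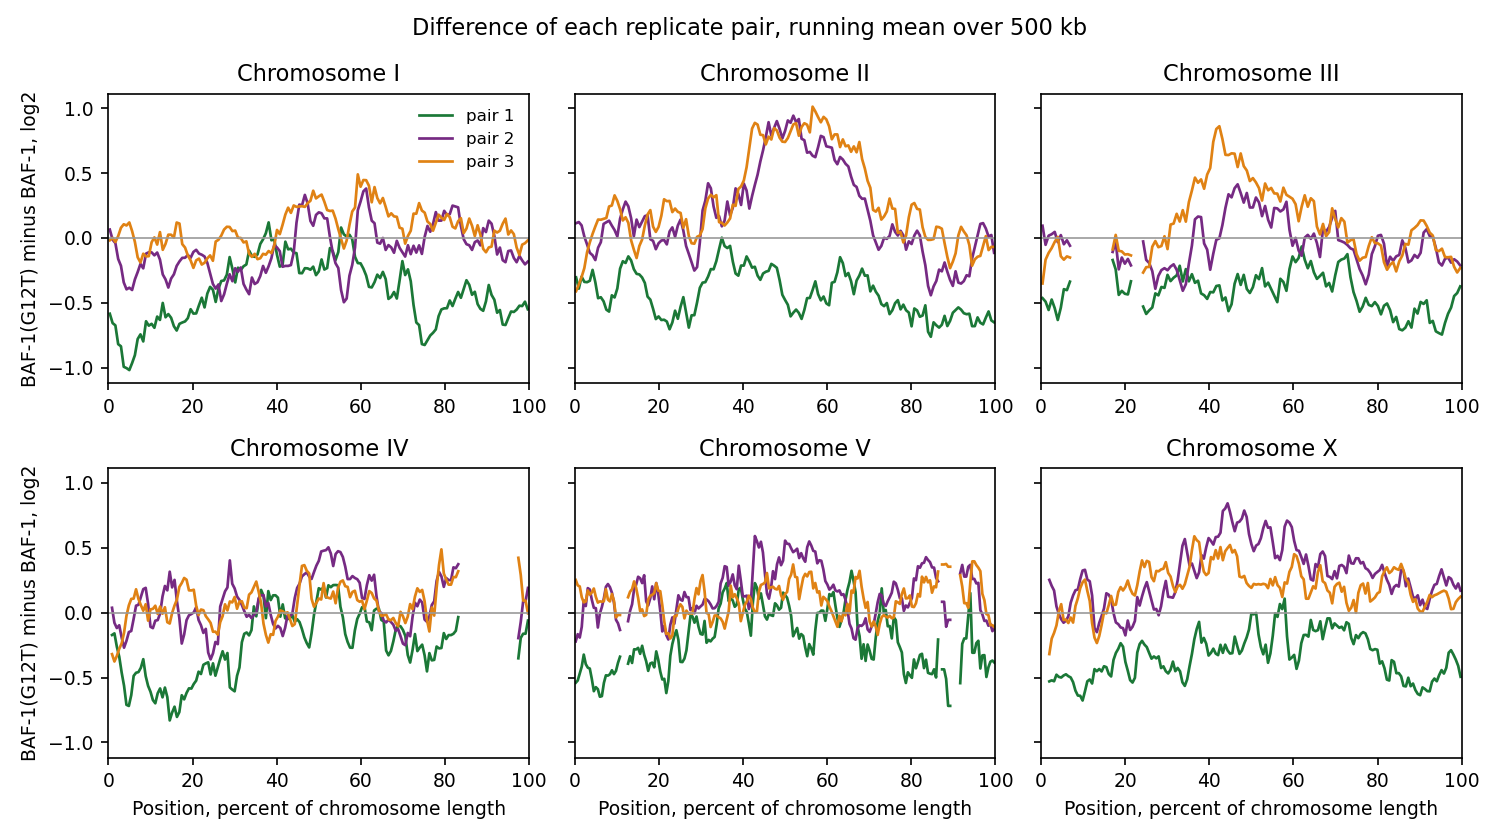
Difference of BAF-1(G12T) minus BAF-1 in each replicate pair along the 6 chromosomes, as the running mean over 500 kb of windows of 100 kb, against position as a percentage of chromosome length. Breaks are windows with fewer than 25 kept bins. From 7 to 10 Mb of chromosome II the means per Mb lie between 0.65 and 0.93 in pairs 2 and 3 and between -0.48 and -0.32 in pair 1.

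Other windows with pairs of one sign were spread over the genome. On the higher side these were IV, 6200001 to 6300000 at 0.52 ± 0.28, V, 12100001 to 12200000 at 0.51 ± 0.20, X, 9200001 to 9300000 at 0.51 ± 0.29, V, 7900001 to 8000000 at 0.51 ± 0.32 and II, 10400001 to 10500000 at 0.45 ± 0.31 (SD, n = 3). The window on IV holds 93 piRNA genes and 8 chemoreceptor genes among 132 genes. Of its 60 kept genes 17 were higher and 2 lower in all 3 pairs. The window of V from 12.1 Mb holds 4 nuclear hormone receptor genes and 2 collagen genes among 39 genes. On the lower side the first was II, 13700001 to 13800000, with ratios of 1.72, 1.33 and 0.89 for BAF-1 and 0.87, 0.86 and 0.56 for BAF-1(G12T) and a difference of -0.55 ± 0.27 (SD, n = 3). The groups were apart, and 8 of its 21 kept genes were lower and 1 was higher in all 3 pairs. Over all kept genes 14.9% were lower and 10.1% higher. Genes share the reads of their window, and these windows were chosen for pairs of one sign, so the gene counts are not separate support. The others were I, 1000001 to 1100000 at -0.53 ± 0.35, I, 14800001 to 14900000 at -0.51 ± 0.21, II, 14200001 to 14300000 at -0.48 ± 0.47, III, 3600001 to 3700000 at -0.48 ± 0.34 and III, 1 to 100000 at -0.48 ± 0.27 (SD, n = 3). Of these 6 lower windows 5 lie in arms, where 16819 of the 33580 kept bins lie. The 12 windows had an adjusted p of 0.948 by limma. Of all 927 windows 59 (6.36%) were higher and 151 (16.3%) lower in all 3 pairs.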

How the data were processed

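DamID libraries of 12 hypodermis samples were compared through 6 replicate ratio columns. The authors aligned reads to ce11 with the RDamIDSeq and RGeneDamIDSeq pipelines, which retain adapter-bearing reads at GATC sites, counted them over genes with 500 bp added at each end and over 2 kb bins, and deposited log2 ratios of fusion to GFP::Dam for each replicate, with a pseudocount of 1 and the column mean subtracted. The treatment of reads that match several places is not stated. The deposited tables hold no counts per feature, so no counting interval can be given. Read totals per library are listed with the study and were used here only for their order. Near-identical or overlapping genes share reads. The deposited adjusted p-values of the authors' fusion against GFP::Dam tests (DESeq2) were used only as a filter alternative, by whether one was given. Columns of means were not used, and intestine tables were not analysed here.

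Each column was centred on its median over features that were not at the most frequent value of any of the 6 columns. Paired differences, BAF-1(G12T) minus BAF-1 with the same replicate number, were tested with limma 3.58.1 in R 4.3.3 with robust empirical Bayes and Benjamini-Hochberg adjustment, at a false discovery rate of 0.05. Means of 100 kb windows with at least 25 kept bins, segments and chromosomes were handled in Python 3.11.15 with pandas 2.3.3, with two-sided exact sign-flip tests over pairs and two-sided exact permutation tests over columns. The replicate numbers come from the sample labels. Deviations of same-numbered columns from their group means correlated at 0.438, 0.305 and 0.284 over genes, 0.450, 0.312 and 0.297 over bins and 0.462, 0.455 and 0.563 over windows, so the numbers were taken to pair the columns. Gene positions and classes came from Ensembl 115, in which 46287 of 46374 genes were matched, and sequences from RefSeq WBcel235. Scripts were tested on simulated data.

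The genes named were a fixed set (envelope genes, mua-6, dod-3, dpy-7 and collagens with changed polymerase occupancy), the 8 genes in each direction with the smallest p among those with 3 pairs of one sign and more than 5 kb apart, the member of each list with the smallest p in each direction, and by the same rule 4 bins more than 20 kb apart and 6 windows. The members and lists were chosen with earlier results of these data known. Alternatives were the fit without pairs, other filters, centrings, scales and window sizes, the median of bins, a fit that was not robust and leaving out each replicate. Mean centring, the adjustment for GC content (per pair, the median of each of 20 classes set to that of all kept features) and list values relative to the pair median were chosen after seeing the data.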

Additional observations from a re-analysis of the deposited data

How the results depend on the processing

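Genes and bins gave 0 calls under every alternative run, among them the fit without the replicate block (0 genes, 0 bins and 0 windows), the scale common to all columns, mean centring, the adjustment for GC content and each replicate left out. Windows gave 0 calls except without replicate 1, where leaving out one replicate gave a range of 0 to 74 windows higher and 0 lower. Without replicate 1, 31 windows were called higher on a common scale, 23 higher and 1 lower with mean centring and 75 higher and 2 lower with the adjustment for GC content, and the cause was not tested. With all pairs and mean centring the smallest adjusted p of a window was 0.0767 by limma, with 69 higher and 48 lower at an unadjusted p under 0.05. With the deposited centring the median gene difference was -0.32 in place of -0.069, and 360 genes were higher and 971 lower at an unadjusted p under 0.05, against 743 and 407. Without the block these counts were 376 and 133, and the block changed no call.

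On a common scale the arm minus centre difference was -0.17 on II, -0.053 on III, -0.00063 on V and -0.030 over autosomes. Without the filter it was 0.0018 on IV and -0.098 over autosomes, the left arm of III was at 0.12, and histones and piRNA genes each had a median of 0.77. This shared value is the difference of a gene at the most frequent value in all 6 columns, so it does not measure contact. The filter kept only 32 of 72 histone genes and 3442 of 15351 piRNA genes. With the deposited centring the medians were -0.45 for hedgehog-related genes, -0.27 for nuclear hormone receptors and -0.26 for C-type lectins. Beside these 18 moved values, 546 main values kept their direction and side of the threshold.

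Single genes that turned in sign carried no call. With the deposited centring col-39 was at -0.23, col-145 at -0.12 and dod-3 at -0.16, and on a common scale col-39 was at -0.016. Leaving out each replicate in turn gave ranges of -0.32 to 0.26 for col-39, -1.48 to 0.28 for col-63, -0.12 to 0.60 for col-145, -0.57 to 0.38 for dpy-7, -1.23 to 0.014 for emr-1, -1.29 to 0.19 for lem-2 and -0.70 to 0.61 for dod-3. Without replicate 1 on a common scale col-63 was at 0.40 and dpy-7 at 0.22, and with mean centring they were at 0.11 and 0.21. With the adjustment for GC content dpy-7 was at 0.24 and mua-6 at 0.038, and with that adjustment and without replicate 1 col-63 was at 0.55, dpy-7 at 0.65, emr-1 at 0.18, lmn-1 at 0.014, mua-6 at 0.089 and clec-126 at 0.11.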
